A study of Mus musculus with 7 samples.

Results

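The vascular endothelial growth factor (VEGF) ligands, their receptor tyrosine kinases and the neuropilin co-receptors were followed in RNA from mouse fetal livers at stage E12.5. The 9 genes, Vegfa, Vegfb, Vegfc, Pgf, Flt1, Kdr, Flt4, Nrp1 and Nrp2, were chosen by family membership from the 39017 genes of the count tables, and the choice was made with earlier results of these data known. All 9 passed the filter on low counts. The study asked what loss of TAF10, a subunit of the general transcription factor TFIID and of the SAGA coactivator, does in erythroid cells of the fetal liver. It comprised 7 livers of the C57BL/6 strain, each dissociated to a single-cell suspension before total RNA was extracted and polyadenylated RNA was sequenced. The 2 TAF10KO livers are titled lox/lox with EpoCre, whereas the series text gives 1 lox allele over a KO allele with EpoR-Cre. Of the 3 TAF10HET livers, replicate 1 is titled lox/wt and replicates 2 and 3 wt/ko, all with EpoCre. The 2 WT livers are titled lox/lox and NEG for Cre, so the WT group also carried lox-flanked Taf10 but no Cre, and Cre and Taf10 loss cannot be told apart between TAF10KO and WT. By title, a wt allele occurs in TAF10HET alone. Its part in any comparison with TAF10HET cannot be told apart from the other differences between the groups. The Cre is driven from the erythropoietin receptor gene, so deletion of lox alleles is directed to erythroid cells, while endothelial cells, hepatoblasts and mesenchyme of the same livers are not its intended target. The ko allele titled in TAF10HET replicates 2 and 3, and the KO allele of the series text, need not be limited to cells with Cre. The labels do not say whether the other cells of those livers also lacked 1 Taf10 copy. Each title also carries a number in the form of a date, called the date code here. The first code was shared by replicate 1 of each group, and the second by TAF10KO replicate 2, TAF10HET replicates 2 and 3 and WT replicate 2. The labels do not say what the code marks.

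VEGF ligands are secreted factors that tell endothelial cells to divide, migrate and form vessels. Vegfa acts mainly through the kinase Kdr, while Flt1 binds Vegfa, Vegfb and Pgf tightly but signals weakly and can hold ligand away from Kdr. Vegfc acts through Flt4, the receptor best known from lymphatic vessels, which is also made by fetal and sinusoidal endothelium. Nrp1 and Nrp2 lack kinase activity, present ligands to the kinases, and also serve as receptors for class 3 semaphorins. In the fetal liver, blood cells mature among hepatoblasts, sinusoidal vessels and mesenchyme, and Vegfa is a textbook target of the hypoxia-inducible factors (HIF), whose alpha subunits are marked for destruction by the oxygen-sensing Egln enzymes.

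Between 18008391 and 43401474 reads were assigned to genes per library. Levels are given as CPM, the count divided by library size and set to a common total, with sizes scaled by TMM, a normalization that sets libraries to a common composition. Taf10 stood at 37.8 to 43.9 CPM in TAF10KO, 63.0 to 78.1 in TAF10HET and 72.0 to 96.5 in WT. Defining markers of endothelium (Cdh5, 28.1 CPM or more) and hepatoblasts (Alb, 4103 CPM or more) were present in every liver, and the erythroid marker list summed to 13480 CPM or more. TAF10HET replicate 1 stood apart in the summed level of 5 cardiac markers, 64.6 CPM there and at most 4.67 CPM in the other 6 libraries. Most of the sum was Actc1 (49.1 CPM), with Tnnt2 at 8.43, Myh7 at 6.47, Myh6 at 0.569 and Nppa at 0 CPM. TAF10HET replicate 1 and TAF10KO replicate 2 were male by their low Xist. WT replicate 1 stood apart at Mmrn1, an endothelial and megakaryocyte gene, with 0 CPM against 20.7 to 57.9 CPM in the other 6. Some genotype calls of members and of listed genes below are also given without TAF10HET replicate 1 or without WT replicate 1, with 1 library left out at a time. List calls by date code are given with all livers only. The p-values rest on the spread left between these livers after genotype and date code are fitted, not on the whole spread within a group. Only TAF10HET replicates 2 and 3 share both genotype group and date code. Unless stated otherwise, a difference is a log2 fold change from edgeR's quasi-likelihood test with genotype and date code as terms, adjusted by Benjamini-Hochberg over the 15800 genes tested, and a gene is said to rise or fall when its adjusted p was under 0.05. The comparisons share libraries and are not independent of each other.

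Compared per length, as CPM per kilobase of exon (RPKM), Vegfa had the highest mean level over the 7 libraries at 17.2 RPKM, followed by Vegfb at 9.78 RPKM. Kdr (6.03 RPKM) and Nrp1 (5.86 RPKM) came next and could not be ordered, since Kdr was above Nrp1 in 5 of 7 libraries, in 1 of 3 with the first date code and in 4 of 4 with the second. Flt4 averaged 2.55 RPKM, Vegfc 1.99, Flt1 1.47 and Nrp2 1.24 RPKM. The order of neighbours among these was not the same in every liver, with Flt4 above Vegfc in 6 of 7, Vegfc above Flt1 in 5 of 7 and Flt1 above Nrp2 in 5 of 7. Pgf was lowest in all 7 libraries, at 0.281 RPKM, and rested on 6 to 43 reads per library. The receptors and neuropilins were read as whole genes, so the secreted, kinase-free form of Flt1 and the soluble neuropilins are included in their counts.

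Vegfa, the principal ligand, had the largest fitted difference of the 9 genes between TAF10KO and each other group, though not on the first date code, where that of Flt1 was larger, nor without TAF10KO replicate 2 (Vegfa 1.05 and Flt1 1.19 against WT). Against TAF10HET that of Flt1 was also the larger without TAF10HET replicate 2 (1.30 beside 1.27) and without the date term (1.32 beside 1.30). The Vegfa level was 123 CPM in TAF10KO replicate 1 and 132 CPM in replicate 2, against 58.45 and 47.55 CPM in WT replicates 1 and 2 and 57.9, 48.6 and 48.3 CPM in TAF10HET replicates 1 to 3. Both TAF10KO livers lay above all other livers, with no overlap, and the WT and TAF10HET values were interleaved. Vegfa rose by 1.27 on the log2 scale in TAF10KO over WT (SE 0.109, 2.42-fold, edgeR adjusted p = 0.00623), and the difference was 1.07 within the first date code and 1.47 within the second. Against TAF10HET it rose by 1.285 (SE 0.0976, adjusted p = 0.00259). In bulk RNA, more cells that make Vegfa and more Vegfa RNA per cell cannot be told apart. Vegfa (ENSMUSG00000023951) lies on mm10 at chr17:46016993-46032369, on the minus strand.

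**Figure D1:**
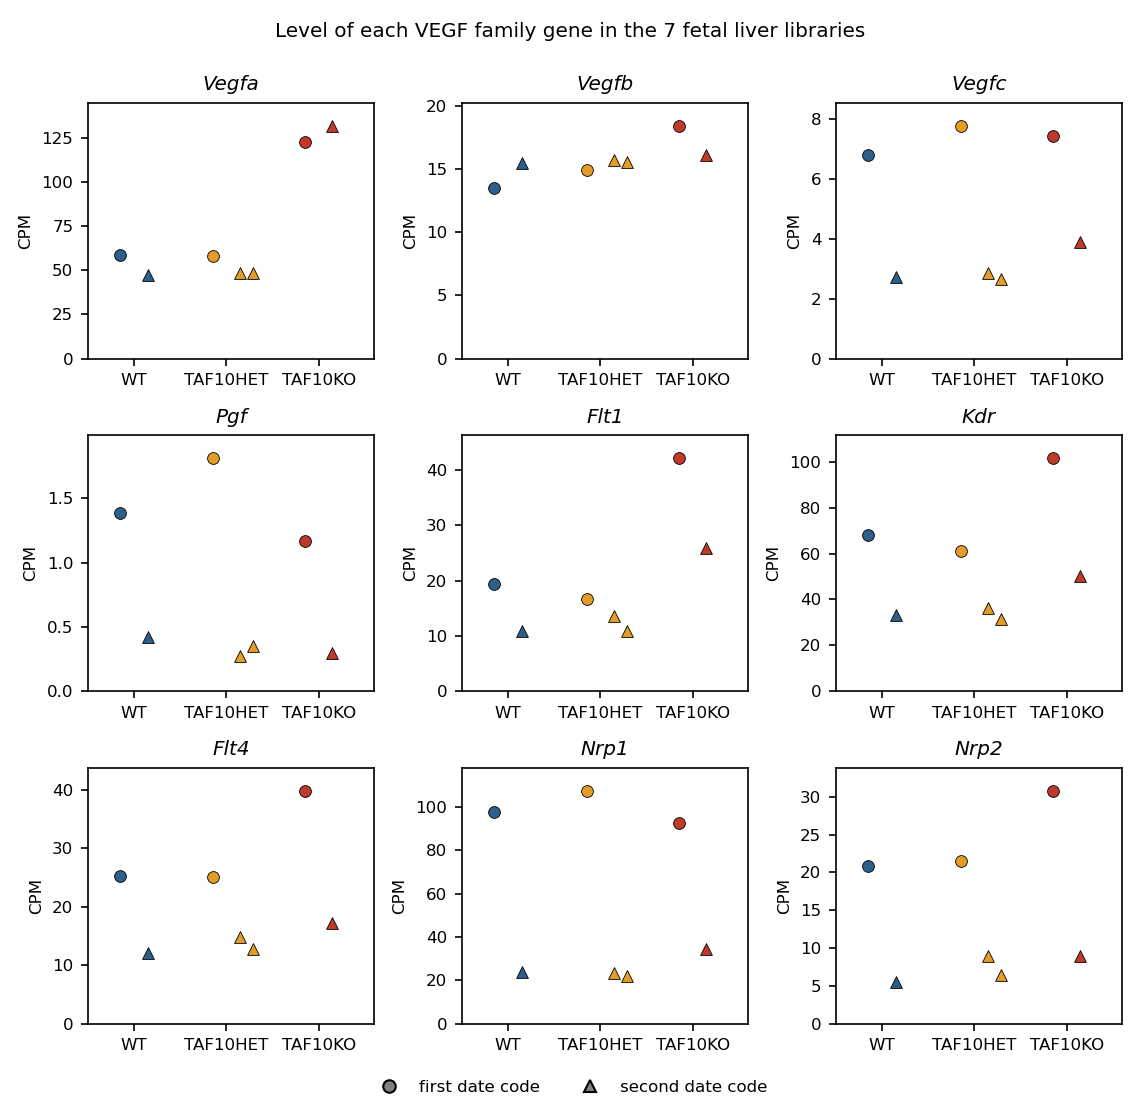
Level of each of the 9 genes in CPM (vertical axes, each from 0) in the WT, TAF10HET and TAF10KO livers, with 1 point per library, circles for the first date code and triangles for the second. Vegfa separates the TAF10KO livers (123 and 132 CPM) from all others (at most 58.45 CPM), whereas Vegfc, Pgf, Kdr, Flt4, Nrp1 and Nrp2 separate the date codes.

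The other ligands did not pass the test. Vegfb, a ligand of Flt1 alone among the kinases, was read at 18.4 and 16.1 CPM in TAF10KO, 14.95 to 15.7 CPM in TAF10HET and 13.55 and 15.5 CPM in WT. Its TAF10KO values were the highest but by small margins, and the fitted difference from WT was 0.25 on the log2 scale (SE 0.125, adjusted p = 0.339). Vegfc, the ligand of Flt4, had 7.41 and 3.88 CPM in TAF10KO, 7.76, 2.86 and 2.64 CPM in TAF10HET and 6.78 and 2.74 CPM in WT, so that the groups overlapped fully and the date codes did not. Pgf, placental growth factor, was between 0.271 and 1.81 CPM in all livers, and its difference of -0.32 between TAF10KO and WT (SE 0.381, adjusted p = 0.694) carried the widest error of the 9. Expressed as a share of the summed RPKM of the 4 ligands, Vegfa made up 65.7% and 72.4% in the TAF10KO livers and 50.4% to 53.85% in the other 5. With 2 livers against 2 an exact permutation test of TAF10KO against WT (two-sided) cannot go below p = 0.333, and that was the value for this share.

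Flt1, the high-affinity receptor of Vegfa, Vegfb and Pgf, rose beside its ligand. TAF10KO livers had 42.1 and 25.9 CPM, WT livers 19.3 and 10.9 CPM, and TAF10HET livers 16.6, 13.5 and 10.8 CPM. Both TAF10KO values were above every other liver, although TAF10KO replicate 2 was closer to WT replicate 1 than to its own replicate. The rise over WT was 1.18 on the log2 scale (SE 0.145, 2.27-fold, adjusted p = 0.0244), being 1.12 on the first date code and 1.24 on the second, and over TAF10HET it was 1.18 (SE 0.131, adjusted p = 0.0113). Flt1 (ENSMUSG00000029648) lies at chr5:147561604-147726011 on the minus strand.

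Kdr, the main signalling receptor of Vegfa, was read at 101.5 and 50.1 CPM in TAF10KO, 67.9 and 33.1 CPM in WT and 61.1, 36.0 and 31.4 CPM in TAF10HET. These groups overlapped, since TAF10KO replicate 2 was below WT replicate 1, but within each date code the TAF10KO liver was the highest. Kdr rose over TAF10HET by 0.63 (log2, SE 0.087, 1.55-fold, adjusted p = 0.0218). Against WT the difference was 0.59 (SE 0.095, adjusted p = 0.053), being 0.58 on the first date code and 0.60 on the second, and did not pass the test. Kdr (ENSMUSG00000062960) lies at chr5:75932827-75978458 on the minus strand. Flt4, the receptor of Vegfc, had 39.8 and 17.2 CPM in TAF10KO, 25.25 and 12.0 CPM in WT and 25.1, 14.7 and 12.8 CPM in TAF10HET. Its TAF10KO livers were again the highest of their date code, and the differences of 0.59 from WT (SE 0.126, adjusted p = 0.0893) and 0.47 from TAF10HET (SE 0.115, adjusted p = 0.103) did not pass. Under 5 of 16 other settings Flt4 was called against WT, among them DESeq2 (adjusted p = 0.018), and under 2 of 16 against TAF10HET. The ratio of Flt1 to Kdr per length was 0.277 and 0.345 in TAF10KO, 0.19 and 0.22 in WT and 0.182 to 0.251 in TAF10HET. Both TAF10KO ratios were above the other 5. The exact permutation test against WT (two-sided) gave p = 0.333, its smallest possible value with 2 livers against 2, so it cannot decide whether the ratio differed.

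Neither neuropilin was called between genotypes in the fit as reported. Nrp1, co-receptor of Vegfa and receptor of semaphorin 3A, was at 92.8 and 34.4 CPM in TAF10KO, 97.5 and 24.0 CPM in WT and 107, 23.3 and 22.05 CPM in TAF10HET. On the first date code the TAF10KO liver was the lowest, and on the second the highest, with differences from WT of -0.07 and 0.52 (fitted 0.23, SE 0.182, adjusted p = 0.537). Nrp2, co-receptor of Vegfc and receptor of semaphorin 3F, was at 30.8 and 8.91 CPM in TAF10KO, 20.9 and 5.57 CPM in WT and 21.5, 9.01 and 6.45 CPM in TAF10HET. Its differences of 0.61 from WT (SE 0.18, adjusted p = 0.162) and 0.32 from TAF10HET (SE 0.165, adjusted p = 0.37) did not pass. Nrp2 was called against WT with no filter on low counts (adjusted p = 0.00315) and with only the 2 groups compared in the fit (0.0405). Nrp1 was called without TAF10KO replicate 1, against WT (0.60, adjusted p = 0.0126) and against TAF10HET (0.57, adjusted p = 0.00965).

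Counted together, 2 of the 9 genes rose and 0 fell between TAF10KO and WT. Over all genes tested, 0.608% were called in this comparison, 0.481% higher and 0.127% lower. Against TAF10HET, 3 of 9 rose and 0 fell, where 1.61% of all genes were called, 1.15% higher and 0.456% lower. The fitted difference was positive for 8 of 9 in both comparisons, Pgf being the exception, beside 54.2% (against WT) and 50.5% (against TAF10HET) of all genes tested. The median difference over the 9 was 0.59 against WT and 0.32 against TAF10HET, beside 0.03 and 0.00 over all genes tested. These calls needed the date code in the fit. With genotype as the only term the sizes were nearly the same (Vegfa 1.26 and Flt1 1.17 against WT) but the adjusted p-values were 0.714 and 1. No gene was then called in any genotype comparison. Between TAF10KO and WT 729 of the 15800 genes had an unadjusted p under 0.05, a share below the 0.05 that would be expected if no gene differed. The Vegfa call against WT was lost without WT replicate 1 (adjusted p = 0.184) or WT replicate 2 (0.269), each of which leaves 1 WT liver, assumed to vary like the other groups. The Flt1 call was lost without WT replicate 1 (adjusted p = 0.255), WT replicate 2 (0.599) or TAF10HET replicate 3 (0.103). Kdr against WT, just outside the threshold, passed under DESeq2 (adjusted p = 0.000487), median-of-ratios factors (0.047) and 7 further settings, and was not called under the remaining 7.

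**Figure D2:**
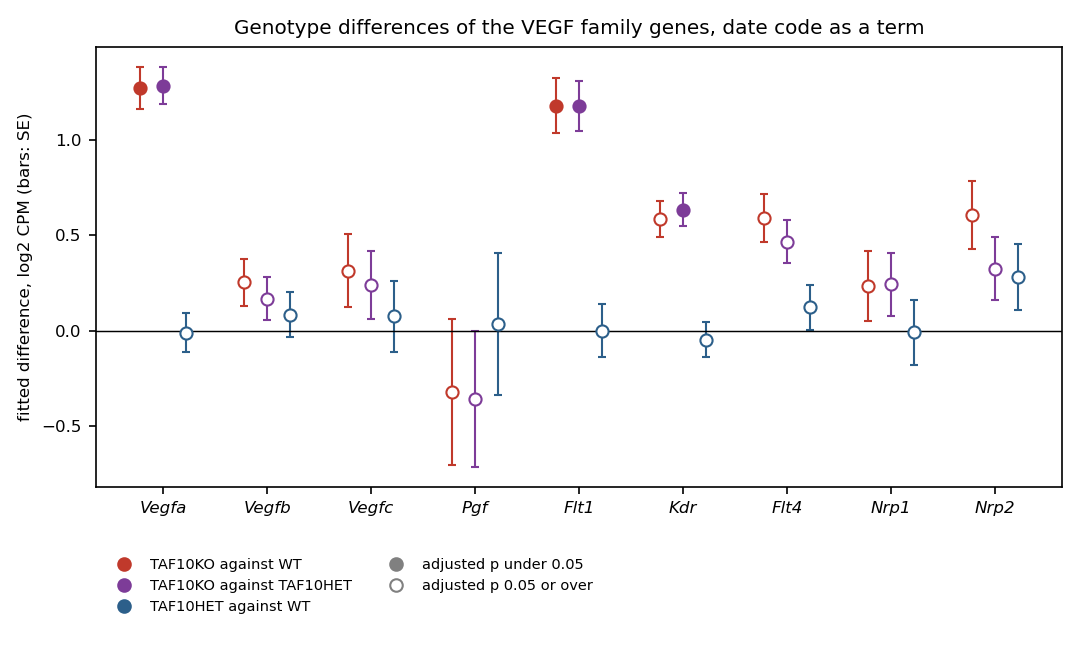
Fitted log2 difference (vertical axis, bars are 1 SE) of each of the 9 genes for TAF10KO against WT, TAF10KO against TAF10HET and TAF10HET against WT, filled where the adjusted p was under 0.05. Filled points stand at Vegfa and Flt1 in both TAF10KO comparisons and at Kdr against TAF10HET, and the TAF10HET against WT points lie between -0.05 and 0.28.

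Against TAF10HET, the Vegfa rise was kept in every setting with the date code in the fit, and with genotype as the only term it had an adjusted p of 0.273. Without TAF10HET replicate 1, the liver with cardiac markers, Vegfa, Flt1 and Kdr were higher than in TAF10HET by 1.35, 1.05 and 0.56 (adjusted p = 0.000371, 0.00552 and 0.0182). The Flt1 and Kdr calls against TAF10HET were lost without WT replicate 1 (adjusted p = 0.0635 and 0.0863), WT replicate 2 (0.0708 and 0.0931) or TAF10HET replicate 3 (0.0889 and 0.125), with only the 2 groups compared in the fit (0.0694 and 0.1), and without the date term (0.69 and 0.98).

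**Figure D3:**
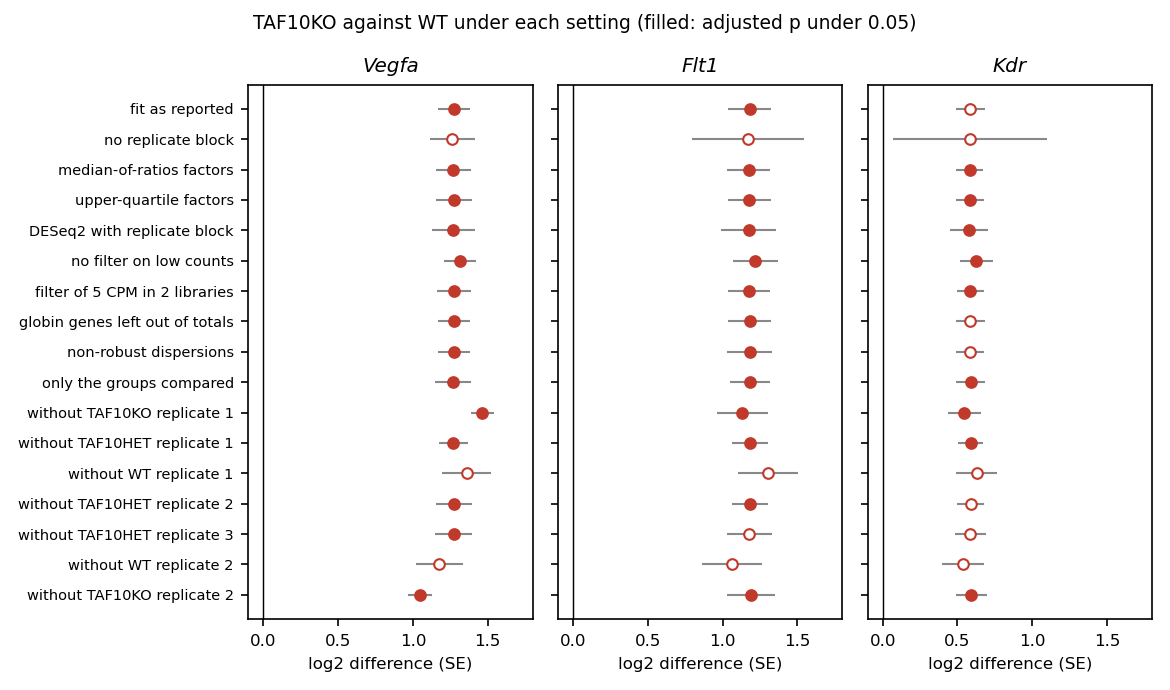
Fitted log2 difference of Vegfa, Flt1 and Kdr between TAF10KO and WT (horizontal axes, bars are 1 SE) as reported and under each of 16 other settings, filled where the adjusted p was under 0.05. The points stay between 1.05 and 1.46 for Vegfa, 1.06 and 1.30 for Flt1 and 0.54 and 0.63 for Kdr, and the bars are widest for Flt1 and Kdr without the date code (no replicate block).

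The 250 bases before the RefSeq start of Vegfa, Flt1 and Kdr, the 3 members that rose over TAF10HET, are shown to let their promoters be compared (GRCm38.p6, minus strand, read toward the gene). Capitals mark ACGTG or GCGTG on either strand (CACGT or CACGC when on the other strand), the core of the sites that HIF recognises. Their positions are chr17:46032378-46032627 for Vegfa, chr5:147726012-147726261 for Flt1 and chr5:75978456-75978705 for Kdr.
Vegfa: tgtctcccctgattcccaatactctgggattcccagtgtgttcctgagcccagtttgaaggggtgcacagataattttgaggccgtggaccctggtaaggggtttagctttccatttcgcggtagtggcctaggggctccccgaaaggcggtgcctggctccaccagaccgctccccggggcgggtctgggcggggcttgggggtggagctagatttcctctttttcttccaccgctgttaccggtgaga
Flt1: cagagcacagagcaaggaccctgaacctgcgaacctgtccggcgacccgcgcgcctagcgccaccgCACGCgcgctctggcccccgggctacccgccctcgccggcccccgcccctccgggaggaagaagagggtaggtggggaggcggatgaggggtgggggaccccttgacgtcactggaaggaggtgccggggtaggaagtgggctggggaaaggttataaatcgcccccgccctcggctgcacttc
Kdr: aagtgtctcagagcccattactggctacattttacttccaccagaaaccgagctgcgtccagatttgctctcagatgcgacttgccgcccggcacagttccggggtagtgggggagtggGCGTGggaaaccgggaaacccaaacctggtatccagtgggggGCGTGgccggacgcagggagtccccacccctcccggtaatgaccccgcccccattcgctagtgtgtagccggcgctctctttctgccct
The printed Vegfa window, at the first of its 2 listed starts, holds no such core. The window at the other start holds 2, ACGTG on the other strand 211 bases and GCGTG on the strand of the gene 218 bases before that start. That second window, at chr17:46025164-46025413, lies inside the span of the Vegfa gene and not upstream of it. The Flt1 window holds 1 GCGTG on the other strand, 184 bases before the start, and a TATAAA on the strand of the gene 31 bases before the start. Kdr holds 2 copies of GCGTG, 131 and 89 bases before the start. RefSeq listed promoters for all 9 genes, with 2 starts for Vegfa and Pgf. Of these 11 windows 7 held a core, the second Vegfa window included. Of 32841 windows of this length for all genes, 38.6% held ACGTG or GCGTG on either strand (16.6% and 28.2% taken singly) and 7.6% held TATAAA on the strand of the gene. A match of letters is a description and not a binding site, and the windows leave out distal elements.

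TAF10HET was compared with WT to ask whether loss of 1 Taf10 allele, with Cre, moved the family. None of the 9 genes was called, where 1 of 15800 (0.00633%) was called over all genes. That gene, the beta-globin gene Hbb-bt, was higher (2.71, adjusted p = 0.0245). Without WT replicate 1, which left 1 WT liver, its difference was 2.78 and was not called. Reads it shares with near-identical copies make its count uncertain. Hbb-bt was at 4915 to 5411 CPM in TAF10HET, titled with a wt allele. It was at 967.4 and 693.5 CPM in WT and 1072 and 636.4 CPM in TAF10KO, all titled lox/lox. For Hbb-bt the wt allele and the TAF10HET group cannot be told apart. Over all 15800 genes, 530 had an unadjusted p under 0.05, a share below the 0.05 that would be expected if no gene differed. Fitted differences ran from -0.05 for Kdr to 0.28 for Nrp2, with adjusted p-values of 0.999 to 1. For Vegfa the difference was -0.01 with an SE of 0.102, and for Flt1 it was 0.00 with an SE of 0.14. The alleles of the TAF10HET livers differed with the date code (lox/wt on the first, wt/ko on the second), so allele and date code cannot be told apart within this group.

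More of the family was called by date code than by genotype. Lower levels on the second code were found for 7 of the 9 genes, where 41.4% of all genes were called, 18.7% higher and 22.7% lower. Nrp1 fell (log2 difference -1.93, SE 0.14, adjusted p = 0.000252), as did Nrp2 (-1.695, SE 0.141, adjusted p = 0.000289) and Pgf (-2.12, SE 0.297, adjusted p = 0.00171). For Nrp1 the range was 92.8 to 107 CPM in the 3 livers of the first code and 22.05 to 34.4 CPM in the 4 of the second, with no overlap. Vegfc fell too (-1.255, SE 0.15, adjusted p = 0.000898), again with no overlap between the codes. The receptors Flt4 (-1.04, adjusted p = 0.000404), Kdr (-0.96, adjusted p = 0.000252) and Flt1 (-0.64, adjusted p = 0.00443) also fell, and the fall was present within each genotype for these 7 genes. Vegfa (log2 -0.16, adjusted p = 0.174) and Vegfb (0.02, adjusted p = 0.877) were not called. The median over the 9 was -1.04, beside 0.02 over all genes tested.

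Markers of several fetal liver cell types moved with the date code too. All 10 stellate and mesenchymal markers fell (median -2.43), led in abundance by Col3a1 (-3.02) and Col1a1 (-3.23), fibrillar collagens, and their summed level was 1408 to 2560 CPM on the first code and 195.4 to 348.5 CPM on the second. Of 16 endothelial markers, 15 fell (median -0.94, Cdh5 -0.96), with sums of 331.8 to 453 CPM and 183.2 to 267.8 CPM. Of 6 sinusoidal endothelial markers, 4 fell (median -1.01), among them the scavenger receptors Stab1 (-0.80) and Stab2 (-0.99). All 4 mesothelial markers tested (median -2.43), 8 of 10 hepatocyte markers (median -0.48) and 6 of 8 macrophage markers (median -0.50) fell, whereas 6 of 9 erythroid markers rose (median 0.41). None of the endothelial, sinusoidal, stellate, hepatocyte, macrophage or erythroid markers was at 0 in any library, and in the mesothelial list Msln was at 0 in some. The part of these cell types in the fall of the 7 members was not tested.

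**Figure D4:**
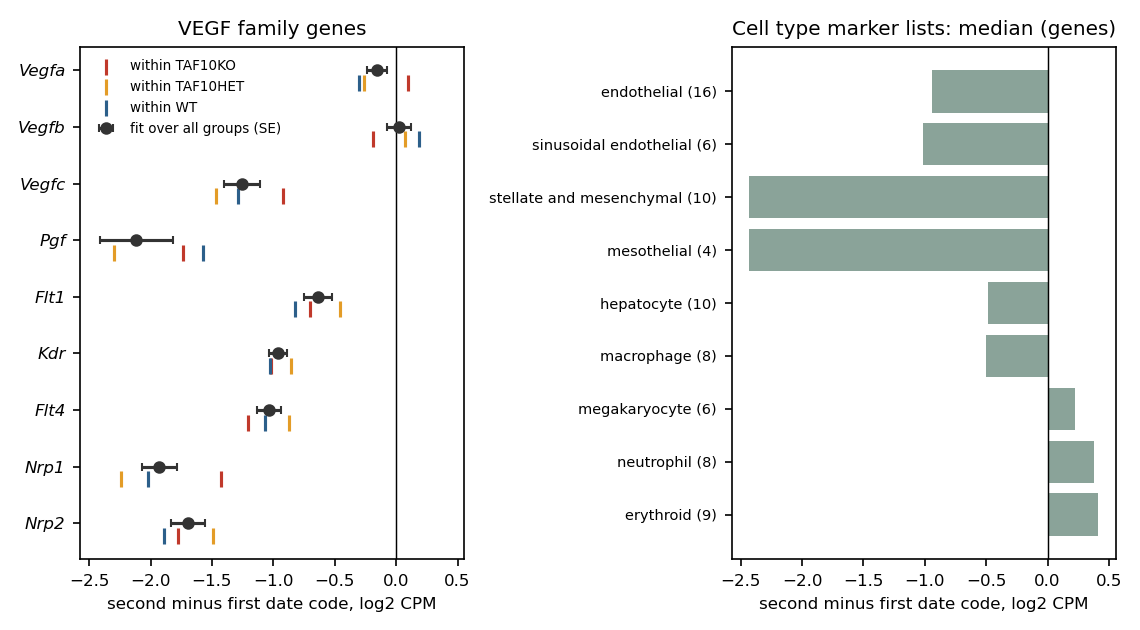
Left, log2 difference between the second and the first date code for each of the 9 genes (black points, fit over all groups with 1 SE) with the difference within each genotype as coloured ticks. Right, the median log2 difference of cell type marker lists, with the number of genes tested. Nrp1, Nrp2 and Pgf lie below -1.6, Vegfa and Vegfb near 0, and the stellate and mesenchymal and the mesothelial medians are at -2.43.

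The same marker lists were read beside the genotype differences. Endothelial markers were higher in TAF10KO than in WT for 16 of 16 genes, beside 54.2% of all genes tested. Their median difference was 0.50 (0.48 on the first code, 0.59 on the second). Of these markers 1 passed the test, Pecam1, an adhesion molecule of endothelial cells (0.64, adjusted p = 0.0438). The most abundant, Cdh5 and Egfl7, differed by 0.40 and 0.65 (adjusted p = 0.176 and 0.053). Summed, the list was at 453 CPM in TAF10KO replicate 1 against 331.8 in WT replicate 1, and at 267.8 CPM in TAF10KO replicate 2 against 183.2 in WT replicate 2. The differences of Kdr and Flt4 (both 0.59) were near the endothelial median, and those of Vegfa and Flt1 (1.27 and 1.18) were above it. Against TAF10HET, all 16 endothelial markers were higher (median 0.38), beside 50.5% of all genes tested. Of these, 2 rose, Pecam1 (0.63, adjusted p = 0.0218) and Egfl7 (0.56, adjusted p = 0.0374). Sinusoidal markers had a median of 0.30 over WT and none passed, with Stab1 at 0.21 and Stab2 at 0.38. Stellate and mesenchymal markers were at a median of 0.57 (0.17 on the first code, 0.84 on the second, none called, Col3a1 0.58 and Col1a1 0.66). Hepatocyte (median -0.24, Afp -0.10, Alb -0.27), macrophage (-0.38, Csf1r -0.06 and Mrc1 -0.21) and neutrophil lists (0.68, S100a9 0.37 and Mpo 0.67) held no called gene, and megakaryocyte markers had a median of 0.23 (Itga2b 0.44, Pf4 0.24, none called). In the erythroid list (median -0.29, Hba-a1 -0.04 and Slc4a1 -0.29, sums of 13480 to 15000 CPM in TAF10KO and 15440 to 18860 CPM in WT) 1 gene fell, the transferrin receptor Tfrc (-0.84, adjusted p = 0.0438). Mesothelial (median 0.51, Upk3b 0.26, Wt1 0.33), lymphatic (0.38, Reln -0.12), neural (0.25, Tubb3 0.63) and cardiac lists (0.78, Actc1 0.36, Tnnt2 1.20) held none, and of the cardiac list Nppa or Myh6 was at 0 in some or all libraries. Against TAF10HET, the sinusoidal receptor Fcgr2b (1.37, adjusted p = 0.0333, mean 3.06 CPM) and the neutrophil granule genes Mpo and Prtn3 rose, and Tfrc, the globin gene Hbb-bt and the macrophage gene C1qa fell. Hbb-bt was not called between TAF10KO and WT (0.025, adjusted p = 0.962), both titled lox/lox, whereas TAF10HET carried a titled wt allele. Fcgr2b differed by -0.67 between TAF10HET and WT (adjusted p = 0.999), and the more abundant sinusoidal marker Lyve1 (mean 42.2 CPM) was lower in TAF10KO, by values that did not pass (-0.59 against WT, adjusted p = 0.202, and -0.64 against TAF10HET, adjusted p = 0.159). Without WT replicate 1 neither Pecam1 (0.70, adjusted p = 0.356) nor Tfrc (-0.83, adjusted p = 0.387) was called against WT, and of the marker calls against TAF10HET that of Hbb-bt alone was kept (-2.68, adjusted p = 0.0276). All of these marker calls were kept without TAF10HET replicate 1. Without TAF10HET replicate 3, or with only the 2 groups compared in the fit, Hbb-bt alone was kept against TAF10HET. Pecam1 and Tfrc were not called against WT without TAF10HET replicate 3 (adjusted p = 0.146 and 0.134) or replicate 2 (0.099 and 0.0539). Nor were they with non-robust dispersions (0.055 and 0.0595). The part of these shifts in the rise of Vegfa and Flt1 was not tested.

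Genes that work with the family were then read from 6 lists of 68 genes, of which 66 were tested. Between TAF10KO and WT 3 rose and 0 fell (4.55%, beside 0.608% of all genes tested). Between TAF10KO and TAF10HET 4 rose and 0 fell (6.06%, beside 1.61% of all genes tested). The oxygen-sensing list held the clearest of these. Egln3, a prolyl hydroxylase of HIF alpha subunits and itself a known HIF target, was at 21.1 and 37.9 CPM in TAF10KO, 6.12 and 8.40 CPM in WT and 7.50, 7.92 and 7.97 CPM in TAF10HET, and rose by 2.00 over WT (SE 0.188, adjusted p = 0.0102). Its relative Egln1 was at 66.4 and 72.0 CPM in TAF10KO and 33.3 to 45.9 CPM in the other livers, and rose by 0.87 (SE 0.0885, adjusted p = 0.0129). For both genes the TAF10KO livers lay above all others. Hif1a, the inducible subunit, did not pass (log2 -0.16, adjusted p = 0.395), nor did its partner Arnt (0.07, adjusted p = 0.736). Without WT replicate 1 the differences of Egln3 (1.98, adjusted p = 0.247) and Egln1 (0.79, adjusted p = 0.255) from WT were not called, and 0 genes were called between TAF10KO and WT when either WT liver was left out. Against TAF10HET Egln3 was called without WT replicate 1 (1.93, adjusted p = 0.046) and Egln1 was not (0.74, adjusted p = 0.0635). Without TAF10HET replicate 1 both were called against both groups. Without TAF10HET replicate 3 neither Egln3 nor Egln1 was called against WT (adjusted p = 0.0512 and 0.0833) or TAF10HET (0.0534 and 0.0885).

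Among 24 genes of receptor signalling tested, 1 rose over WT, Map2k1, a kinase of the MAP kinase cascade (0.53, adjusted p = 0.0438), and it also rose over TAF10HET (0.45, adjusted p = 0.0317). Map2k1 was called in both comparisons without TAF10HET replicate 1. It was called in neither without WT replicate 1, or without TAF10HET replicate 3 (adjusted p = 0.15 against WT and 0.17 against TAF10HET). None of 11 genes of the endothelial response to VEGF was called against WT. Of these, 9 were higher, beside 54.2% of all genes tested, and the median was 0.73. The most abundant, the protease Adamts1, differed by 0.58 (adjusted p = 0.238). Esm1, a secreted proteoglycan of endothelial tip cells, was at 4.89 and 2.92 CPM in TAF10KO and 0.889 to 1.41 CPM elsewhere, with no overlap. It rose over TAF10HET (1.63, SE 0.286, adjusted p = 0.0422), and its difference of 1.69 from WT had an adjusted p of 0.0675. The Esm1 call was lost without TAF10HET replicate 1 (1.53, adjusted p = 0.0501) or TAF10HET replicate 3 (1.82, adjusted p = 0.123). It was also lost without WT replicate 1, where the difference was 1.59. All 13 semaphorins and plexins, the other partners of the neuropilins, were higher than in WT (median 0.52), beside 54.2% of all genes tested. None passed, with Plxnd1 the most abundant (0.52, adjusted p = 0.11). Of the same 13, 12 were higher in TAF10HET than in WT (median 0.33), beside 52.7% of all genes tested. In TAF10KO 9 were higher than in TAF10HET (median 0.14, and -0.17 on the first date code), beside 50.5%. In the PDGF family, whose ligands and receptors are related in structure to those of VEGF, none of 6 passed (median 0.45, Pdgfra 0.54). None of the 3 ligand partners passed either (median -0.04, Adamts3 -0.06). Between TAF10HET and WT 0 of the 66 genes were called. With the date code, 4 rose and 34 fell (57.6%, beside 41.4% of all genes tested). Those that fell included 5 of 6 PDGF genes, 11 of 13 semaphorins and plexins (median -1.52, Sema3f -1.91) and 6 of 11 response genes (Adamts1 -2.18, Unc5b -2.71). Egln1 (0.26) and Egln3 (0.45) rose.

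Within the family, likeness was described after the mean of each date code was subtracted from log2 CPM. Over the 7 libraries Flt1 and Kdr correlated at 0.997, Vegfa and Flt1 at 0.96, Flt4 and Nrp2 at 0.91 and Vegfc and Nrp1 at 0.94. Pgf was negatively related to 7 of the other 8, between -0.86 and -0.19, and was near 0 with Nrp1. These libraries share genotype groups, so such values are descriptions with no test. Among 12124 other genes whose log2 CPM averaged 1 or more, the most alike to Vegfa were Tmem181a (0.998), Hjurp (0.998) and Hk2 (0.997), to Flt1 Slc38a3 (0.998), Kdr and Apaf1 (0.996), and to Kdr Flt1, Siglecf (0.997) and Intu (0.996). With 7 points and this many candidates, the nearest genes of the other 6 members reached 0.984 to 0.996 too.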

How the data were processed

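The authors deposited raw counts, whole numbers of reads for each Ensembl gene, with no normalization. The submitters' processing notes name TopHat2 2.0.8, DESeq2 and mm10. Which counter, annotation and strand setting were used is not given in the sources used here. All tables held 39017 genes and 5 summary lines, which were left out. These lines counted reads in no gene (6.81% to 10.1%), ambiguous reads (3.98% to 5.94%) and reads aligned to several places (14.1% to 22.25%). GENCODE M21 (mm10) supplied symbols, positions and exon lengths for 37693 identifiers. The 1324 others held 0.198% of counts. Of the members, Nrp1 alone overlaps another gene, Mir1903, over 80 bases (0.8% of its exon bases), and without a known strand setting reads there cannot be assigned.

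The tests used edgeR 4.0.16 in R 4.3.3 (filterByExpr by group, TMM, robust dispersions, quasi-likelihood F test, two-sided) on all 7 libraries, with 15800 genes kept. The SE is the log2 fold change divided by the square root of F. Log2 CPM used a prior count of 2. RPKM are CPM per kilobase of exon union. The pairing of libraries comes from the date code in their titles, entered as a block. Deviations from group means correlated at 0.40 to 0.74 in 8 pairs of libraries with the same code and at -0.74 to -0.40 in 8 pairs with different codes, and in groups of 2 they mirror each other by construction. The biological coefficient of variation was 13.4% with the date term and 33.9% without. No library was a copy of another of its group by chi-square. The tests were checked on simulated data.

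The members, the 18 gene lists and the date term were chosen with earlier results of these data known. The members were named in every comparison. From each pathway list up to 4 called genes with the smallest adjusted p, or else the most abundant, were named, from each marker list the 2 most abundant (some genes are not reported here), and for each member the 3 most alike genes. Pecam1, Tfrc, Fcgr2b, Lyve1, Mpo, Prtn3, Hbb-bt, C1qa, Hif1a and Esm1 against WT were added after their values were seen. Alternatives were DESeq2 1.42.0, upper-quartile or median-of-ratios factors, totals without globin genes, no filter on low counts, at least 5 CPM in 2 libraries, non-robust dispersions, no date block, only the groups compared, and each library left out. Promoter windows came from RefSeq (GRCm38.p6), with all 9 members matched.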

Additional observations from a re-analysis of the deposited data

Results flagged for a closer look

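In 7 comparisons of a member every library of the group differed from the other group one way on the first date code and the opposite way on the second, and in each the difference between the codes was not tested. Nrp1 was involved in 3 of them. In TAF10KO against WT the Nrp1 difference in log2 CPM was -0.07 on the first code and 0.52 on the second. Against TAF10HET it was -0.21 and 0.60, and for TAF10HET against WT it was 0.14 and -0.08. For Vegfc, TAF10KO against TAF10HET gave -0.07 on the first code and 0.49 on the second. For TAF10HET against WT, Vegfa gave -0.01 and 0.03, Flt4 gave -0.01 and 0.19, and Pgf, on few reads, gave 0.37 and -0.36. None of these 7 passed the test over both codes. Each value rests on 1 or 2 livers per group, and on the second code TAF10HET is the mean of 2 livers.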

How the results depend on the processing

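As reported, 96 genes and 2 members were called for TAF10KO against WT, 1 gene and 0 members for TAF10HET against WT, 254 genes and 3 members for TAF10KO against TAF10HET, and 6536 genes and 7 members for the date code. Leaving out the date code (no replicate block) gave 0 genes and 0 members in each genotype comparison and no date value. DESeq2 with the block called 589, 9 and 690 genes in the genotype comparisons, in the order above (4 members against WT), no filter called 1399, 289 and 1498 (5 members against WT), only the groups compared 553, 7 and 26 (5 members against WT, 1 against TAF10HET), and non-robust dispersions 53 for TAF10KO and 0 for TAF10HET against WT. Leaving out 1 library gave 0 to 1282 genes and 0 to 4 members for TAF10KO against WT, 0 to 13 genes for TAF10HET against WT, 16 to 1203 genes and 1 to 4 members for TAF10KO against TAF10HET, and 3206 (without WT replicate 2) to 7303 genes for the date code.

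Vegfa, Flt1, Kdr, Flt4 and Nrp2 were higher in TAF10KO than in both other groups under all 16 settings, and the 7 genes that fell with the date code stayed called under every setting that gave a value. Only uncalled differences changed direction. With 1 library left out, Nrp1 ranged from -0.16 to 0.597 against WT and from -0.191 to 0.568 against TAF10HET, and against TAF10HET Vegfc ranged from -0.056 to 0.464 and Pgf from -0.509 to 0.04. Vegfb by date code was -0.058 with upper-quartile factors, -0.038 with the 5 CPM filter and from -0.072 to 0.087 with 1 library left out. For TAF10HET against WT, no replicate block gave Vegfc -0.11, Pgf -0.173, Flt4 -0.088 and Nrp2 -0.104. Flt1 was 0.001 with median-of-ratios factors, DESeq2 or no filter, 0.002 with upper-quartile factors and 0.006 with the 5 CPM filter. Pgf was -0.003 with DESeq2, and Vegfa and Nrp1 were 0.011 and 0.032 with only the groups compared. With 1 library left out the TAF10HET against WT differences ranged as follows, Vegfa from -0.12 to 0.08, Vegfb from -0.026 to 0.217, Vegfc from -0.115 to 0.134, Pgf from -0.359 to 0.249, Flt1 from -0.14 to 0.131, Kdr from -0.116 to 0.024 and Nrp1 from -0.26 to 0.058. The cause of these changes was not tested. Pgf had no value under the 5 CPM filter, and only the groups compared gave none for the date code. The 2 livers each of TAF10KO and WT, and 6 to 43 reads for Pgf, limit the precision.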
